A study of Mus musculus with 6 samples.

Results

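The 6 genes described here encode proteins that work outside the cell, and were compared between the mouse melanoma line B16 and the mouse melanocyte line melan-a. They are the proteases Plat, Mmp2 and Prss23, the metalloproteinase inhibitor Timp2, the secreted phosphoprotein Spp1 (osteopontin) and the matrix protein Tinagl1. The genes were chosen by their measured difference between the cell lines, since they were taken by name from the study's table of 3549 entries that differed between the cell lines, so these are 6 genes of 3549 entries. That table names no array probe. Each listed fold, melan-a over B16, was therefore matched to the mean fold of the array probes over 6 arrays, and a probe within 0.00051 was taken as a candidate. The listed fold served only to name the probe. By the study's methods, a differing gene with several features on the array is listed with the largest fold among them. The folds below, those of the list genes included, may therefore be the most extreme of a gene's probes. Other probes of the same gene are not seen here. Mmp2, Prss23, Spp1 and Tinagl1 each matched 1 probe, while Plat and Timp2 each matched 2, which gave 8 candidate probes of 41174 on the array. The listed names of Prss23 and Tinagl1 were older ones, 2310046G15Rik and Lcn7. The match distances inside the tolerance ran up to 0.00044, and the nearest probe outside it was 0.19457 away for Spp1, 0.07548 for Prss23, 0.01424 for Tinagl1, 0.00628 for Plat, 0.00361 for Mmp2 and 0.00068 for Timp2. None of the 8 probes matched another entry of the table.

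Each of the 6 two-colour arrays held cDNA of B16 cells and of melan-a cells labelled with different cyanine dyes. B16 carried Cy5 on 3 arrays (replicates 2, 4 and 6) and Cy3 on the other 3 (replicates 1, 3 and 5). B16 is a malignant line of C57BL/6 origin grown in DMEM with bovine calf serum. Melan-a is a line from the same strain, diploid, partially immortalized and non-tumorigenic, grown in RPMI 1640 with fetal bovine serum and a phorbol ester. Neither cell line was treated with retinoic acid, and each group is 1 cell line. The medium and the cell line cannot be told apart. The values are normalized signals and their log2 ratio, B16 minus melan-a, so that a negative ratio means less RNA signal in B16. Because the mean ratio named the probes, it is given below as a description and without a test.

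The proteins meet in the turnover of the matrix around cells. Plat, tissue plasminogen activator, cleaves plasminogen to plasmin, a protease that digests fibrin and activates other proteases. Mmp2, gelatinase A, digests type IV collagen of basement membranes and denatured collagens, and Timp2 inhibits metalloproteinases and also takes part in the activation of pro-Mmp2 at the cell surface. Prss23 is a secreted serine protease. Spp1 binds integrins and CD44 on the cell surface, and it is made by bone cells, macrophages and many tumours. Tinagl1 is a matricellular protein with a cathepsin B-like domain that lacks protease activity. In melanoma several of these proteins have been studied in invasion and metastasis, neither of which was measured here.

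In the RefSeq gene models of build GRCm38.p6, Plat lies on chromosome 8 at 22757722 to 22782848 and Mmp2 on the same chromosome at 92827290 to 92853421. Prss23 lies on chromosome 7 at 89507783 to 89527187, Timp2 on chromosome 11 at 118301061 to 118355411, Spp1 on chromosome 5 at 104435111 to 104441053 and Tinagl1 on chromosome 4 at 130165600 to 130175122. The position of each probe within its gene is not given in the sources used here. Promoter windows of 300 bases, 250 before and 50 after a transcript start, matched Prss23, Timp2, Spp1 and Tinagl1, with 12 windows in all (RefSeq, GRCm38.p6). Motifs were looked for on both strands in these 12 windows and in all 32851 windows of that length. The window of the outermost start of each gene is shown, since all 4 genes had a lower mean signal in B16, with a further window of Prss23 that holds the AP-1 letters. They run 5′ to 3′ on the gene's strand, and capitals mark every motif match.
Prss23, chr7:89527138-89527437, minus strand: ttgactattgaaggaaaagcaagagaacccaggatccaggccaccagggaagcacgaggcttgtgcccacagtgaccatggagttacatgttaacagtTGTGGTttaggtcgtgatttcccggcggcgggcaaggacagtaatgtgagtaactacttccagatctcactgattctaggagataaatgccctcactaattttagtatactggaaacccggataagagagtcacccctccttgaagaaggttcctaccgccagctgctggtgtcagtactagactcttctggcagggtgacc
Prss23, chr7:89518155-89518454, minus strand: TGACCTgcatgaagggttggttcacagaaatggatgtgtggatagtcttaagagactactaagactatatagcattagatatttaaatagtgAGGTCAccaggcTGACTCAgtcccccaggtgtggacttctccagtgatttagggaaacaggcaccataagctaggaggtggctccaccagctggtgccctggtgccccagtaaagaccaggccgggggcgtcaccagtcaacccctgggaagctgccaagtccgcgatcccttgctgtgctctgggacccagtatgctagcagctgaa
Timp2, chr11:118355362-118355661, minus strand: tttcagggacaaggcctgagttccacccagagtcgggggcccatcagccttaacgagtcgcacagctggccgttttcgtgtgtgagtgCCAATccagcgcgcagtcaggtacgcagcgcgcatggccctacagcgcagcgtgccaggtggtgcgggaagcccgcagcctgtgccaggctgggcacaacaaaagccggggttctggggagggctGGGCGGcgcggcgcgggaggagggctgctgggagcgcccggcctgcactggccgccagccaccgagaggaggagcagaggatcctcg
Spp1, chr5:104434861-104435160, plus strand: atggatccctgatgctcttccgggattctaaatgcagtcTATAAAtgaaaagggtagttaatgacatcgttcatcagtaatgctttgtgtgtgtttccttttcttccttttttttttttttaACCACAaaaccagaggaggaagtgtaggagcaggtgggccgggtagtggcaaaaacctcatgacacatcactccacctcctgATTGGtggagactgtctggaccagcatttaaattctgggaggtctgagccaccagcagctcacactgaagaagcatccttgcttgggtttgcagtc
Tinagl1, chr4:130175073-130175372, minus strand: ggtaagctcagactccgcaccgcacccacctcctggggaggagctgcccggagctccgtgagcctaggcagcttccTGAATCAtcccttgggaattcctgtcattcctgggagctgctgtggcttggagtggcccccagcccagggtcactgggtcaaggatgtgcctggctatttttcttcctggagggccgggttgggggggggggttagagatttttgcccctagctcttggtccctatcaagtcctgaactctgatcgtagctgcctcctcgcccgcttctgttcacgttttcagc

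The AP-1 letters TGANTCA, bound by Fos and Jun dimers, stood in 3 of the 12 windows, namely 2 overlapping windows of Prss23 and the outermost window of Tinagl1, against 7.81% of all windows. In Tinagl1 the match lay 174 to 168 bases before the start, and in the Prss23 window shown it lay 146 to 140 bases before it. The element AGGTCA of nuclear receptors, those for retinoic acid included, matched the same 2 windows of Prss23 and none of the other genes (16.3% of all windows). The GC box GGGCGG matched 6 windows of Prss23, Timp2 and Tinagl1 (35.7% of all windows), and CCAAT matched Spp1 and Timp2 (37.4%). TATAAA was found only in the Spp1 window shown (13.6%), 211 to 206 bases before the start. TGTGGT, the letters of Runx factors, matched Spp1 and Prss23 (16.8%), and neither CACGTG (7.15%) nor TGACGTCA (1.79%) was in any of the 12. The AGGTCA match and the AP-1 letters of Prss23 do not overlap. These matches describe letters and say nothing of binding in either cell line.

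Of 39687 probes tested over all arrays with limma, 5.23% were lower in B16 and 6.31% were higher. The thresholds were a fold over 1.5 and an adjusted p under 0.10. All 8 candidate probes fell in the lower class, but the mean ratio that named them is the one tested, so nothing is read from that count. Among probes with a value on all 6 arrays, 8.37% had a ratio below 0 on every array. This held for 7 of the 8 candidates, the exception being probe 1 of Timp2. The mean of the same ratios named the candidates, so nothing is read from this count either. The ratios are plotted by array in the plot of log2 ratios.

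**Figure D1:**
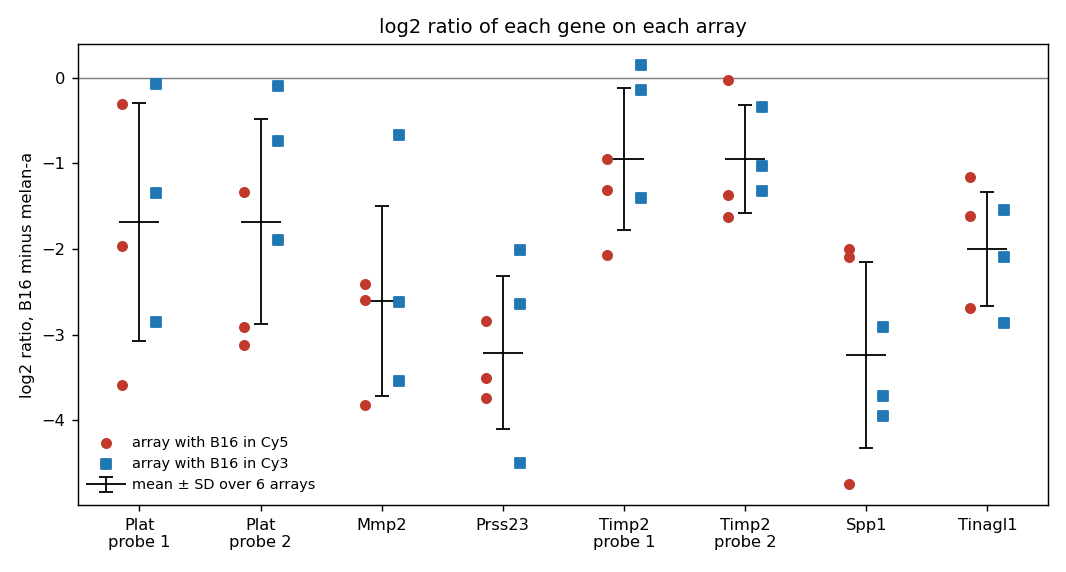
Log2 ratio, B16 minus melan-a, of the 8 candidate probes (horizontal axis) on each of 6 arrays, with circles for arrays with B16 in Cy5, squares for arrays with B16 in Cy3, and a bar with whiskers for the mean ± SD (n = 6). Spp1 and Prss23 lie lowest, at means of -3.24 and -3.21, and both Timp2 probes highest, at -0.95; one Timp2 value, 0.15, lies above 0.

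Plat was measured by probe 1 (A_51_P182794) and probe 2 (A_52_P409833), whose equal means follow from the match. Whether both or only 1 of them belongs to Plat is not settled by the sources used here. With probe 1 the signal was 208, 384 and 736 in B16 (lowest, median and highest of 6 arrays), against 360, 1193 and 4951 in melan-a. With probe 2 it was 246, 497 and 1179.8 in B16, against 393, 1909.7 and 5458 in melan-a. The ranges of the cell lines overlap for both probes, but on every array B16 had the lower signal. The log2 ratio of probe 1 was -1.69 ± 1.39 (SD, n = 6; SE 0.57), a 3.21-fold lower signal in B16, and that of probe 2 was -1.68 ± 1.20 (SD, n = 6; SE 0.49). The arrays disagreed on the size of the difference. On replicate 1 the ratio was -0.07 with probe 1 and -0.10 with probe 2, and on replicate 4 it was -3.59 and -3.12. The SD of probe 1 exceeded that of 99.7% of all tested probes. By quantitative PCR the study did not verify the Plat difference between melan-a and B16. The ratio there was smaller than on the arrays and not significant.

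On replicate 1 Plat was near the level of the control spots in both cell lines, so the size of its difference there cannot be read. The B16 signals of 344 and 368 lay below the 95th percentile of the 314 negative control spots in the same dye, 403, and the melan-a signals of 360 and 393 lay below theirs, 510. In B16 probe 1 also lay below them on replicates 2 and 4, which leaves the ratios of those arrays less certain. On replicate 6, where probe 1 gave a ratio of -0.31 and probe 2 one of -1.33, all signals were above the negative controls. The image software gave both Plat spots on replicate 1, and that of probe 1 on replicate 2, quality code 2, which at least 99.8% of the empty spots on every array carried, and 27.2% to 60.0% of all probes. The code occurred once more among the 48 spots of the 8 probes, on replicate 2 of Timp2 probe 1. With such spots left out, a choice made after seeing the data, the ratio was -2.02 over 4 arrays for Plat probe 1 and -2.0 over 5 arrays for probe 2.

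Mmp2 (A_51_P341736) showed a wider gap. Its signal was 248, 715 and 914 in B16 (lowest, median and highest), against 1320.2, 3834 and 11093 in melan-a. The ranges did not overlap, and the highest B16 signal was below the lowest melan-a signal. The ratio was -2.61 ± 1.11 (SD, n = 6; SE 0.45), which is a 6.11-fold lower signal in B16. It was smallest in size on replicate 1, at -0.67, and largest on replicate 4, at -3.82. On replicate 1 both signals were above the negative controls, with 861 in B16 and 1373 in melan-a. Without that array the mean was -3.00, and without replicate 4 it was -2.37.

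Prss23 (A_52_P679105) had one of the widest gaps of the 6 genes. Its signal was 266, 608 and 1417 in B16, against 1072, 6775 and 18452 in melan-a (lowest, median and highest of 6 arrays). On every array the melan-a signal was at least 4.03-fold that of B16, and on replicate 3 it was 22.6-fold. The ratio was -3.21 ± 0.89 (SD, n = 6; SE 0.36), a 9.24-fold lower signal in B16. The ranges overlapped, since the melan-a signal of replicate 1 lay below the B16 signals of replicates 4 and 5. With the median of the empty spots subtracted before the ratio, the mean fold was 14. In B16 the signal on replicate 1 lay below the 95th percentile of the 500 empty spots, 272. On the other 5 arrays B16 was above both the empty and the negative control spots.

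Timp2 had the smallest difference of the 6 genes and matched probe 1 (A_51_P404875) and probe 2 (A_52_P540219). Probe 1 gave 168, 515 and 1994 in B16, against 416, 1218 and 2194 in melan-a. Probe 2 gave 2786, 22059.9 and 36017 in B16, against 5709, 39839 and 57001 in melan-a. The cell lines overlapped with both probes. The ratio was -0.95 ± 0.83 (SD, n = 6; SE 0.34) with probe 1 and -0.95 ± 0.63 (SD, n = 6; SE 0.26) with probe 2, a 1.94-fold lower signal in B16. The difference was far from even over arrays. With probe 1 the ratio was 0.15 on replicate 1 and -0.14 on replicate 5, and with probe 2 it was -0.02 on replicate 6 and -0.34 on replicate 5. The B16 signal of probe 1 lay below the 95th percentile of the negative controls on replicates 2 and 4. Leaving out 1 array at a time, the mean ran between -1.17 and -0.73 for probe 1 and between -1.14 and -0.82 for probe 2. A tolerance of 0.001 would have added 2 further candidates for Timp2, and none for the other genes, so its probe is the least certain of the 6.

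Spp1 (A_51_P358765), osteopontin, had the lowest mean ratio. Its signal was 271, 1115 and 5799 in B16, against 4711, 7245 and 24727 in melan-a (lowest, median and highest). The ranges overlapped through a single B16 value, 5799 on replicate 6, where melan-a was also at its highest. The ratio was -3.24 ± 1.09 (SD, n = 6; SE 0.45), a 9.44-fold lower signal in B16. It was -4.75 on replicate 2 and -3.95 on replicate 1, and smallest in size on replicates 4 and 6, at -2.0 and -2.09. On replicate 1 the B16 signal, 305, lay below the 95th percentile of the negative controls, 403, so the ratio of that array is uncertain in size, while melan-a had 4711.

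Tinagl1 (A_52_P418489) was more even. Its signal was 228, 992 and 2673 in B16, against 703, 3574 and 7821 in melan-a, and these ranges overlapped. The ratio was -2.0 ± 0.67 (SD, n = 6; SE 0.28), a 3.99-fold lower signal in B16. All 6 ratios were below -1, between -2.86 on replicate 1 and -1.16 on replicate 4. By quantitative PCR the study reported a significant difference in the same direction for Tinagl1. Prss23 and Spp1 also had all 6 ratios below -1, whereas Mmp2 had 5, each Plat probe 4, Timp2 probe 2 had 4 and Timp2 probe 1 had 3.

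**Figure D2:**
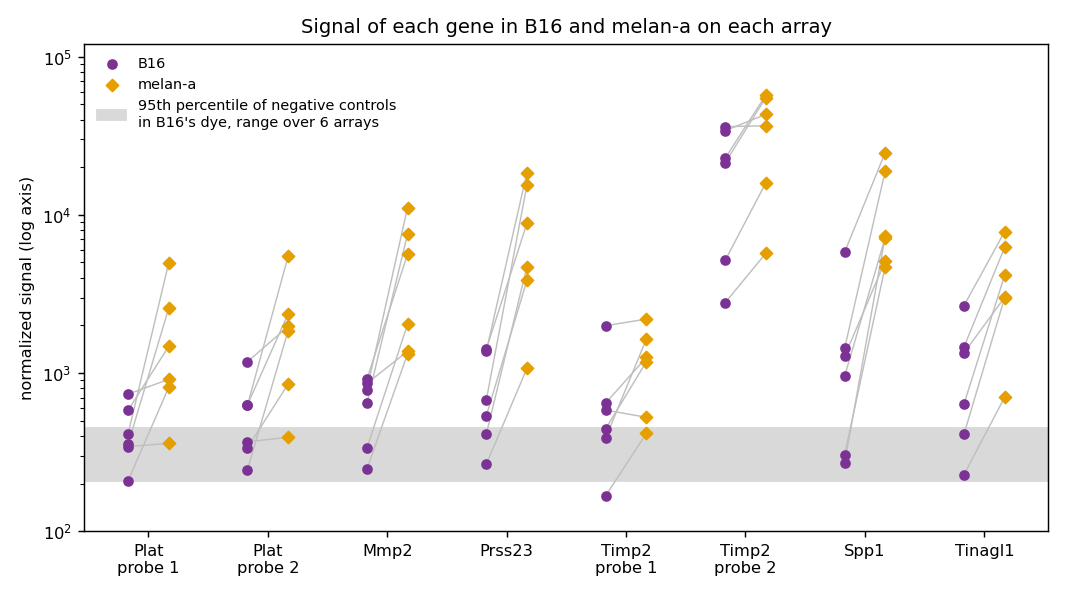
Normalized signal on a log axis of the 8 candidate probes in B16 (left circles) and melan-a (right diamonds), with a line joining the 2 signals of an array, and a grey band for the 95th percentile of negative control spots in B16's dye, 207 to 452 over the 6 arrays. The Mmp2 ranges are apart, and B16 signals of every probe but Timp2 probe 2 reach into the band.

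In order of mean ratio, Spp1 (-3.24) and Prss23 (-3.21) came lowest, then Mmp2 (-2.61), Tinagl1 (-2.0), Plat (-1.69 and -1.68) and Timp2 (-0.95). Neighbours in that order differed by less than the larger of their SDs. Spp1 had a lower ratio than Prss23 on 3 of 6 arrays, and Prss23 a lower one than Mmp2 on 5 of 6. Prss23 was below both Timp2 probes on all 6 arrays. Mmp2 was below Timp2 probe 1 on all 6 arrays and below probe 2 on 5. The gaps between the means were set by the match that named the probes, so nothing is read from these counts.

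The deviations from each probe's mean fell into different patterns over the arrays, as the map of deviations shows. For both Plat probes, Mmp2, Prss23 and Timp2 probe 1, replicate 1 had the smallest difference of the 6 arrays, 1.10 to 1.94 above the mean. Spp1 and Tinagl1 did the reverse. They deviated by -0.71 and -0.86 on replicate 1, and their smallest difference was on replicate 4, 1.24 and 0.83 above the mean. On replicate 4 the Plat probes deviated by -1.90 and -1.44, and Mmp2 by -1.21. For the probes of the whole array that passed as lower in B16, the median ratio was -0.69 on replicate 1, -0.68 on replicate 5 and -0.72 on replicate 6, against -1.11 to -1.18 on replicates 2, 3 and 4. By its file header, replicate 1 was quantified on a day of its own, and with a single array on that day the day and the array cannot be told apart. On it the B16 signals of Plat, Prss23 and Spp1 lay below the 95th percentile of the negative controls. Replicate numbers are those of the array files. In the series matrix the columns of replicates 4 and 5 hold the ratios of each other's array, so which of these 2 numbers belongs to which array is not settled, while means over the 6 arrays do not depend on it. With the dyes given for each array file, the ratios over all probes were correlated between arrays. The lowest r, 0.07, was that of replicates 1 and 4. Replicate 1 reached at most 0.5 with any other array, and replicate 4 reached 0.63. For replicate 5 r lay between 0.36 and 0.62 and for replicate 6 between 0.3 and 0.63. It lay between 0.48 and 0.62 for replicate 2 and between 0.47 and 0.62 for replicate 3.

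**Figure D3:**
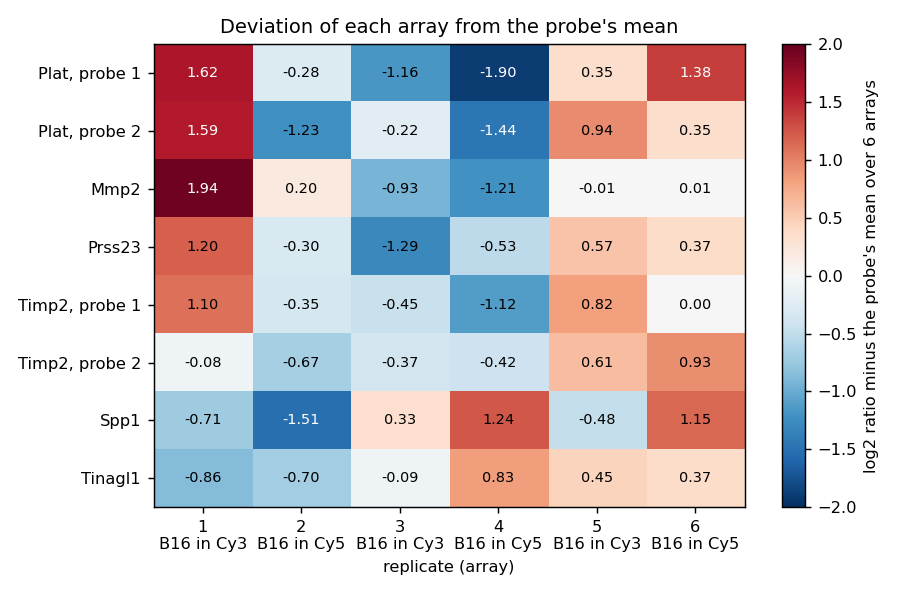
Log2 ratio of each candidate probe (rows) on each array (columns) minus the probe's mean over the 6 arrays, in log2 units, with red for a smaller and blue for a larger deficit in B16 than the mean. Replicate 1 is at 1.94 for Mmp2 and at -0.86 for Tinagl1, and replicate 4 is at -1.90 for Plat probe 1 and at 1.24 for Spp1.

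Markers of pigment cells and of other cell types were set beside these patterns. Of 9 fibroblast markers the table names Col1a1 alone, a chain of type I collagen. Its signal was 209 to 1708 in B16, against 910 to 47975 in melan-a. Its ratio was -5.57 on replicate 4, -4.53 on replicate 2 and -3.76 on replicate 3, against -1.33 on replicate 1, -1.04 on replicate 5 and -0.83 on replicate 6. It deviated from its mean in the same direction as both Plat probes and Prss23 on 6 of 6 arrays. The count was 5 for each Timp2 probe, 4 for Mmp2 and for Tinagl1, and 2 for Spp1. The median ratio of all probes lower in B16 split the arrays in the same way, with replicates 2, 3 and 4 lowest. The share of all probes that deviate together with a marker was not computed, so nothing is read from such counts in this paragraph. Of 15 pigment cell markers the table names Oca2, Kit, Mlph and Gpnmb. Oca2, a melanosome membrane protein, had ratios of -4.94 on replicate 1 and 0.06 on replicate 4, and it deviated in the direction of Spp1 and of Tinagl1 on 5 of 6 arrays and of Mmp2 on 1. Kit, a receptor of melanocytes, had a mean ratio of -0.89 and deviated in the direction of Tinagl1 on 2 of 6 arrays, and of Spp1 and of Mmp2 on 4 each. Mlph had a mean ratio of -0.67 and Gpnmb of 1.06. Lyz2 alone of 6 macrophage markers was named, with a mean ratio of -2.49. It deviated in the direction of Tinagl1 on 5 of 6 arrays, of Plat, Prss23 and Spp1 on 3 each and of Mmp2 on 1. None of 7 keratinocyte markers was named. The markers that the table does not name were not analysed here. The part of such cells in the results was not tested, and fewer cells of a type and less RNA per cell cannot be told apart in these extracts.

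The labelling gave a test that does not depend on the mean that named the probes. It asks whether a ratio depended on which dye B16 carried, through a limma coefficient equal to the mean of the Cy5 arrays of B16 minus that of the Cy3 arrays, divided by 2. Over all probes 0.0403% passed an adjusted p under 0.10, and none of the 8 candidates did. Before adjustment, 13.17% of all probes had a limma p under 0.05, a larger share than that threshold gives without a dye effect. Plat probe 2 and Timp2 probe 1 were among these probes, and the other candidates were not. The small share after adjustment therefore does not show that the ratios were free of the dye. The largest coefficient was that of Plat probe 2, -0.77 ± 0.39 (SE, adjusted p = 0.30 with limma), for which the mean ratio was -2.46 with B16 in Cy5 and -0.91 with B16 in Cy3. Timp2 probe 1 had a coefficient of -0.49 ± 0.29 (SE, limma adjusted p = 0.38) and means of -1.44 and -0.46. Spp1 and Tinagl1 had positive coefficients, 0.29 ± 0.48 and 0.17 ± 0.30 (SE), with limma adjusted p of 0.74 and 0.78. For Timp2 probe 2 it was -0.05 ± 0.29. All 8 probes were lower in B16 under either labelling, which follows in part from the mean that named them. The standard errors given are each probe's own, before limma's moderation, whereas the p-values come from the moderated t. They ran from 0.29 to 0.62, above the median over all probes, 0.13. A moderate dependence on the dye could thus go undetected for these genes with 6 arrays.

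**Figure D4:**
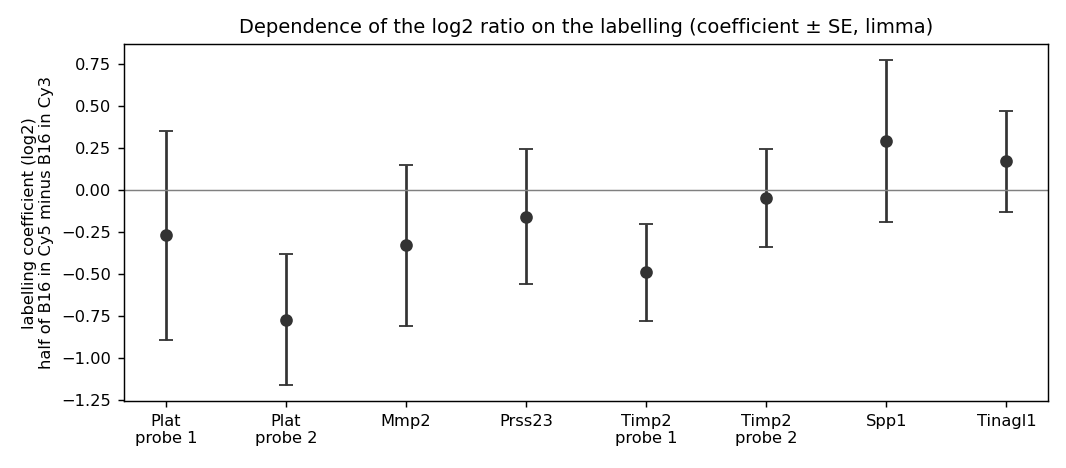
Labelling coefficient in log2 units from limma ± the probe's own SE, not moderated, for the 8 candidate probes, with 0 for no dependence on the dye. It runs between -0.77 for Plat probe 2 and 0.29 for Spp1, and no probe passed an adjusted p under 0.10.

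Genes that work with these 6 were looked up in 9 lists. The table names 49 of them, of which 38 were lower and 7 higher in B16 with every candidate probe past the limma thresholds, and 4 had candidates on both sides of them. Without the 6 genes themselves, 32 were lower and 7 higher, with a median ratio of -1.13. Both counts of lower genes include Lrp1 and Htra3, which matched the same probes and are not separate values. Of all entries in that table, lower ones numbered 1072 and higher ones 1290, with a median ratio of 0.66 over all entries, and the median over all tested probes was -0.009. All the named genes come from a table of genes that differ, so these counts are not an independent result, and genes it does not name had no probe to be read here. Entries that matched several probes leave the gene's own value known only as far as those probes share a mean.

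In the plasminogen system 4 of 21 genes were named. Lrp1, a receptor that clears Plat, had a mean ratio of -0.87 over 4 candidates, all shared with Htra3. Eno1, an enolase that also binds plasminogen, was higher at 1.17. Serpine2, protease nexin 1, a serine protease inhibitor, had a mean of -0.91 but not all of its 3 candidates passed. Plau, Plaur and Plg are not named in the table and were not analysed here.

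Of 21 matrix metalloproteinases 3 were named and all were lower in B16, namely Mmp2, Mmp15 (-1.28 ± 0.84, SD, n = 6) and Mmp19 (-1.11, 2 candidates). Mmp9 and Mmp14, the activator of pro-Mmp2, are not named. Among the inhibitors Reck, a membrane-anchored inhibitor of metalloproteinases, had a ratio of -1.40 ± 0.53 (SD, n = 6), with all 6 arrays between -2.13 and -0.56. Pcolce, an enhancer of procollagen cleavage, had a mean of -1.23, and A2m, a broad protease trap, was higher at 0.89 with 9 candidates. Timp1 and Timp3 are not named. Of 30 ADAM-type proteases 6 were named. Adam23, which lacks protease activity, was lower at -2.74 ± 0.40 (SD, n = 6), as were Bmp1 (-1.37 ± 0.87, SD, n = 6), the procollagen C-proteinase, and Adam10 (-1.07, 4 candidates), a sheddase. Adamts1, which cleaves proteoglycans, was higher at 1.55 and Adam9 at 0.95. Adam17 and Adamts20 are not named.

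The secreted serine and proprotein proteases held 7 named genes of 31, with 6 lower in B16, none higher and Mbtps1 undecided. Beside Prss23, the secreted protease Htra1 had a ratio of -2.67 ± 1.21 (SD, n = 6), between -3.92 and -1.08. C1s1, a protease of the complement cascade, had -2.24 ± 1.53, and Furin, a convertase that activates many secreted precursors, had -1.13 ± 0.90 (SD, n = 6 each). Htra3 matched the same 4 probes as Lrp1 and adds no separate value. Of 22 other serine protease inhibitors 3 were named. Serpinf1, pigment epithelium-derived factor, had a ratio of -2.33 ± 0.59 and Serpind1, heparin cofactor II, of -2.03 ± 1.67 (SD, n = 6 each). Tfpi, the inhibitor of the tissue factor pathway, was the opposite case and was higher in B16 at 2.40, with arrays between 0.77 and 4.4 over 3 candidates. Spint2 is not named.

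Of 20 cathepsins and cystatins 6 were named, with 5 lower and Ctsl undecided. Cst3, cystatin C, an inhibitor of cathepsins, had a ratio of -1.23 ± 0.93 and Ctsc, cathepsin C, of -1.12 ± 0.77 (SD, n = 6 each). Lgmn, legumain, an asparaginyl protease, had a mean of -1.04, and Ctsl, cathepsin L, of -0.82 over 8 candidates that differed from -2.14 to 1.13 over the arrays. Ctsb is not named.

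For osteopontin, 6 of 16 receptors and relatives were named. Tgm2, a transglutaminase that crosslinks osteopontin, had a ratio of -2.59 ± 0.88, between -3.64 and -1.64, and Itgb5, an integrin chain that with the alpha v chain binds osteopontin, of -2.25 ± 1.04 (SD, n = 6 each). Itga9 had -1.33 ± 0.98 (SD, n = 6), with 5 of 6 arrays below 0. Itga4 was higher in B16 at 1.20 over 6 candidates. Itgav, Itgb3 and Cd44 are not named. Of 28 genes of the Tinagl1 and basement membrane list 10 were named, 8 of them lower. Fn1, fibronectin, a matrix glycoprotein that cells adhere to, was lower in B16 at -2.86 ± 1.5, Nid2, nidogen 2, at -2.08 ± 1.56 and Col4a1, a chain of the type IV collagen that Mmp2 digests, at -2.06 ± 0.76 (SD, n = 6 each). Nid1, the other nidogen, was higher at 1.48 over 8 candidates, and Lamb1 was undecided. Egfr is not named.

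**Figure D5:**
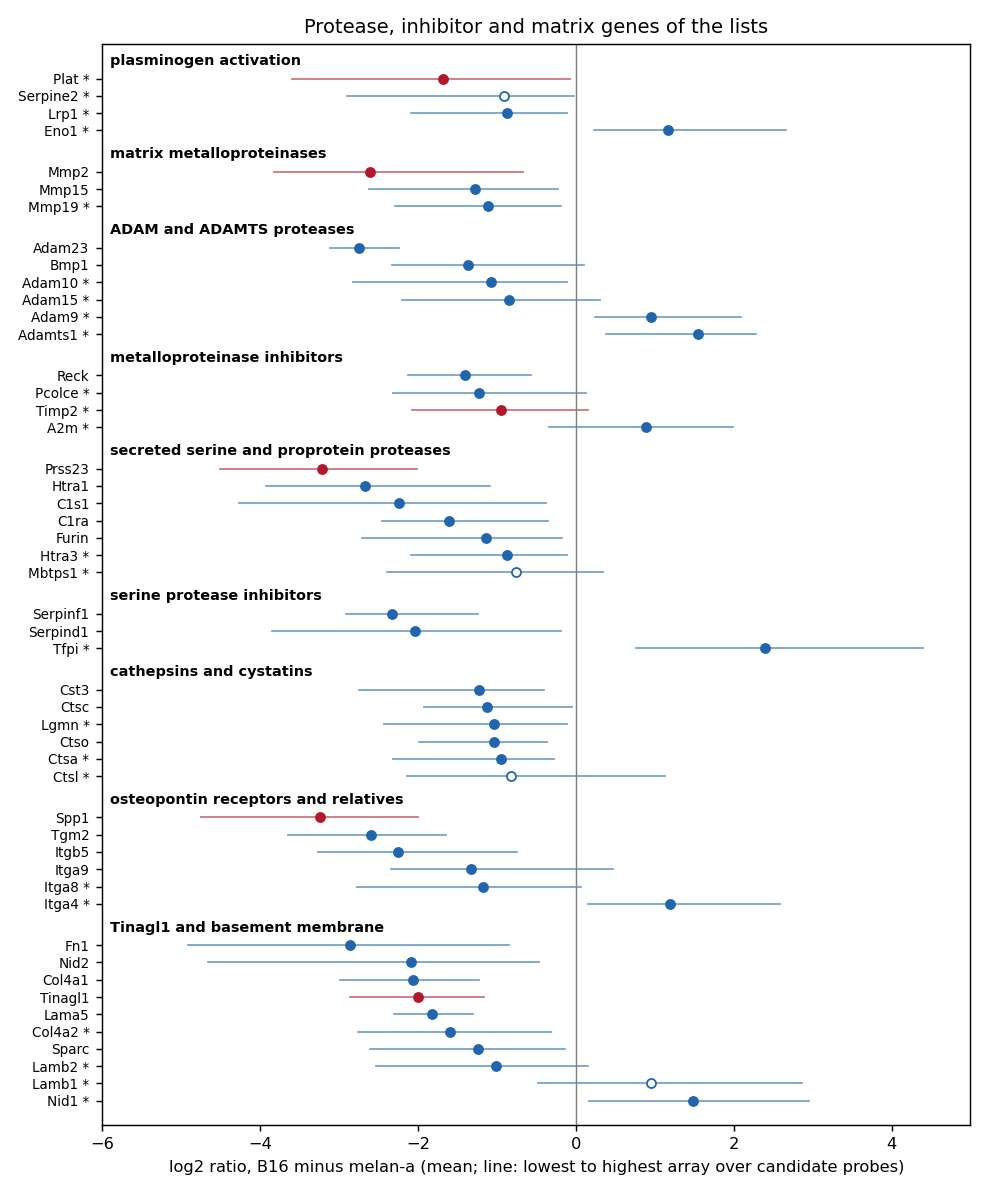
Mean log2 ratio, B16 minus melan-a, of the 49 named genes of the 9 lists (points, with the 6 described genes in red and the others in blue), with a line between the lowest and highest array over all candidate probes. Filled points passed the limma thresholds with every candidate, open points did not, and an asterisk marks genes with more than 1 candidate. The 41 genes left of 0 include every named matrix metalloproteinase, and Tfpi lies farthest right at 2.40.

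The genes most like the 4 single-probe members were sought among 353 other entries with a symbol, 1 probe and 6 values. The measure was the root mean square difference of the log2 ratios over the 6 arrays. These ratios were not centred, so the distance also holds the difference in mean ratio, the value that named the probes. A small distance therefore does not show a shared pattern over the arrays. Only entries whose fold matched a single probe could be compared. For Prss23 these were Axl, a receptor tyrosine kinase (0.35, arrays between -4.63 and -2.02), and Hspb8, a small heat shock protein (0.40). For Tinagl1 they were Rdh5, a retinol dehydrogenase (0.31), and Dkk3, a secreted protein of the Dickkopf family (0.38). Mmp2 had no neighbour as near, with Emp2, a membrane protein, at 0.61 and Nat8f2 at 0.68. For Spp1 the nearest were Tmsb4x, thymosin beta 4, which binds actin (0.70, mean ratio -3.20), and 2310057J18Rik (0.78). The median distance over the 353 entries was 1.68 for Mmp2, 2.02 for Prss23, 2.26 for Spp1 and 1.22 for Tinagl1.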

How the data were processed

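RNA of B16 and melan-a cells was compared on 6 two-colour Agilent arrays with the dyes swapped between 3 and 3, and the study's methods call the 6 pairs biological replicates. The deposited values are log2 signals of each dye. Per the file headers, the authors measured spots with the ImaGene software, subtracted no background and applied a global lowess normalization within each array. A quality code per spot (0, 2 or 3) is deposited without a key, and all codes were kept. Here the log2 signal of melan-a was subtracted from that of B16 on each array by the dye in the labels. A spot counted where its signals added up to more than 400, and a probe where this held on at least 3 of 6 arrays. On the resulting 39687 probes limma 3.58.1 (R 4.3.3) was run against a mean of 0 and again with the labelling as a coefficient, with Benjamini-Hochberg adjustment over all probes. One-class SAM with 64 sign permutations at a median false discovery rate of 10% was an alternative. The fits were tested on simulated data. Sums of the signals of both dyes had array medians between 779.9 and 4308, and signals near the control spots limit the fold that can be seen. The series matrix holds the same ratios turned to melan-a over B16, in numbered rows that name no probe and with the columns of replicates 4 and 5 exchanged relative to the array files, and was not used for values. No column of other samples was present (0).

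The genes, lists and tests were chosen with earlier results of these data known. Named genes are the 6 genes with every candidate, of each list up to 3 lower and 3 higher in B16 with the largest mean ratio and its key members whatever their result, and for single-probe genes the 2 nearest entries. A list gene counted when every candidate passed. Where a gene had 2 entries, as Adam23 did, the entry with the larger fold was used. For Tgm2 and Serpinf1 the study's list of genes that retinoic acid also moved gives smaller folds between the cell lines than those used here. Of the 3549 entries 2402 had a symbol in the RefSeq gene table, and 490 matched a single probe that no other entry shared. The retinoic acid arrays of the study were not analysed here, and a gene of the lists is not reported. Python 3.11.15 with numpy 2.4.6 and pandas 2.3.3 read the files.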

Additional observations from a re-analysis of the deposited data

How the results depend on the processing

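The mean ratios of the 8 candidate probes stayed below 0 and within 1 SD of the values given in all 104 values recomputed over the 8 probes and the planned settings, and also with code 2 spots left out. Leaving out 1 array, or keeping the 3 arrays of 1 labelling, cannot move a mean of 6 arrays by its full SD. For those settings the limit of 1 SD could therefore not be missed. The same holds for the intensity limit of 800 and for code 2 spots left out, which took at most 1 and 2 arrays from a probe. Removing the intensity limit could change none of the 8 means, since every probe already had values on all 6 arrays. Only the median signal, the empty-spot subtraction and the centring of arrays could have missed the limit of 1 SD. Subtracting the empty-spot median raised the fold to 14 for Prss23 and 14.1 for Spp1, 8.35 for Mmp2, 5.41 for Tinagl1 and 4.59 for Plat probe 1, whereas Timp2 probe 2 kept 1.96. The limma thresholds were met by all 8 probes except without replicate 2 or 3, when Plat probe 1 and Timp2 probe 1 missed them, and without replicate 6, when Timp2 probe 1 did. Counts over all probes ran from 1576 to 2235 lower and 2011 to 2815 higher with 1 array left out. List genes lower in B16 ran from 27 to 38. Restricted to entries with a single probe, 25 list genes were lower and 0 higher, because the 7 higher genes each had several candidates. The tolerance is an absolute width on the fold melan-a over B16, which is low for genes higher in B16. Probes lie closer together there, so such genes tend to match more of them. With any passing candidate enough, 41 list genes were lower and 8 higher.

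The number of probes with a dye effect was 16, and with 1 array left out it ran from 0 (without replicate 5, with 4648 probes at an unadjusted limma p under 0.05) to 58 (without replicate 6). With 1 array left out the coefficient changed sign for Plat probe 1 (-0.68 to 0.14), Mmp2 (-0.65 to 0.07), Prss23 (-0.52 to 0.10) and Timp2 probe 2 (-0.30 to 0.10). For Tinagl1 it ran from 0.0 to 0.39, and any change of sign was at a value that rounds to 0.0. Over all alternatives the adjusted p of the 8 probes lay between 0.17 and 1.0 in limma. The cause of these changes was not tested. The fit against 0 is itself paired, since each ratio sets B16 against melan-a on the same array. No paired analysis was possible beyond that because the ratios form 1 group. Use of the series matrix as a source of values was not run, since its rows name no probe.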
